A study of Mus musculus with 40 samples.

Results

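Dppa2, Dppa3, Dppa4 and Dppa5a are the members described here, taken by gene symbol from 3 tables of RNA counts and followed through every genotype and day. All 4 symbols were present and passed the filter on low counts in each table, out of 55276, 55291 and 55276 rows. The study sequenced RNA from E14tg2a, a mouse embryonic stem cell line grown in serum with leukaemia inhibitory factor, in 34 libraries, and asked how the corepressor genes Ctbp1 and Ctbp2 act on genes of the 2-cell-like state with and without Dux. The genotype table held 2 libraries each of unmodified cells (WT), cells lacking Ctbp1 and Ctbp2 (CtbpDKO), cells lacking Dux (DuxKO), cells lacking Ctbp1, Ctbp2 and Dux (Ctbp_DuxTKO), cells lacking Dppa2 (Dppa2KO), and cells lacking Ctbp1, Ctbp2 and Dppa2 (called DKO-Dppa2). The Pramel7 table held 4 WT libraries (WT-P, replicates 3 to 6) and 2 each of DuxKO (DuxKO-P, replicates 3 and 4), cells overexpressing Pramel7 (P7OE), DuxKO cells that also overexpress it (DuxKO_P7OE) and cells lacking Pramel7 (P7KO). The suffix P only marks that table. The time course followed CtbpDKO cells on days 0, 3, 9, 12 and 18, with 2 libraries a day, under labels that carry the word Dox, with no schedule given, so every one of its groups lacks Ctbp1. The labels say neither how the lines were made nor whether a line is 1 clone, and nothing says that replicates were separate cultures, so the p-values measure only the spread between these libraries.

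The Dppa names come from developmental pluripotency associated genes, a collection of unrelated genes that share expression in early embryos and pluripotent cells. Dppa2 and Dppa4 encode SAP-domain proteins that bind chromatin together, are needed for full expression of Dux and of many germline and early embryonic promoters, and keep those promoters free of DNA methylation. Dppa3, also called Stella or PGC7, is a maternal-effect gene whose product holds UHRF1 away from chromatin and so limits maintenance methylation; in serum-grown stem cells it is expressed in part of the population. Dppa5a, also called Esg1, encodes a KH-domain RNA-binding protein that is abundant in embryonic stem cells.

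Dppa4 and Dppa2 lie side by side on chromosome 16, at chr16:48283735-48294292 and chr16:48310274-48319513 in the RefSeq annotation of GRCm38.p6, with 15981 bp between them. The next protein-coding gene beyond Dppa2 is Morc1, a germline silencing gene, 112 kb away. Dppa3 is at chr6:122626424-122630271, with Gdf3 16.3 kb and Nanog 77.2 kb away. Dppa5a is at chr9:78367052-78368199, 8.7 kb from Ooep, an oocyte gene of the subcortical maternal complex. The pseudogenes Dppa5b and Dppa5c lie 120 kb and 94 kb from Dppa5a on the same chromosome, and their rows are followed with it because reads can be split between near-identical copies. Of the other rows named Dppa, Dppa1 had 0 counts in all 34 libraries and the pseudogene Dppa3-ps had 0 to 3.

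Library depth was 19944644 to 36025046 counts for the genotypes, 10123058 to 30135341 for the Pramel7 samples and 16674526 to 30169626 for the days. Levels are given as CPM, read counts scaled to a common library size after TMM normalisation. Ctbp1 had 1911 and 2109 counts in WT and 0 to 4 in each library of the lines labelled as Ctbp knockouts, the time course included. Ctbp2 kept reads, at 43.6 and 43.8 CPM in CtbpDKO against 211 and 215 CPM in WT. Duxf3, the row for Dux, had 40 and 24 counts in CtbpDKO, 1 and 0 in WT and 0 in DuxKO, so the Dux label cannot be checked against WT at this depth. Pramel7 had 435 and 431 counts in P7OE, 537 and 588 in DuxKO_P7OE, 2 to 4 in WT-P, and 0 and 3 in P7KO, where RNA therefore gives no check. The title of the DKO-Dppa2 samples names Dppa2 and Dux and its description names Ctbp and Dppa2; the description was used, and Ctbp1 had 4 and 0 counts there. Duxf3, the Dux gene, had 0 counts in both DKO-Dppa2 libraries and in both Dppa2KO libraries, against 24 to 40 in CtbpDKO, so whether Dux is also edited in DKO-Dppa2 cannot be told from these counts. Every contrast with DKO-Dppa2, and the interaction of Ctbp and Dppa2 loss, may therefore include a loss of Dux. Stem cell markers (Pou5f1, Sox2, Nanog, Zfp42 and Esrrb) were present in every group, with summed levels from 1320 to 2580 CPM.

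Dppa2 was the member called in the most comparisons, 13 of 19 between pairs of groups. Those calls include every comparison with Dppa2KO or DKO-Dppa2, in which Dppa2 is itself the edited gene. Among the genotypes with no Dppa2 edit, Dppa2 was highest in cells without Ctbp, whether or not Dux was present. It had 1707 and 1868 counts in WT, or 57.3 and 60.9 CPM. CtbpDKO held 2947 and 3628 counts, or 89.9 and 101 CPM. Both CtbpDKO libraries were above both WT libraries, and Dppa2 rose 1.62-fold (log2 fold change 0.69, SE 0.10, edgeR quasi-likelihood adjusted p 0.000249). Dppa2 was the 1 member called in that comparison, in which 26.1% of all tested genes were called. In such bulk libraries, more cells with Dppa2 RNA and more Dppa2 RNA per cell cannot be told apart.

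Without Dux the same contrast was also a rise. Dppa2 stood at 47.3 and 44.0 CPM in DuxKO and at 84.4 and 95.4 CPM in Ctbp_DuxTKO, so the 2 groups did not overlap. The increase was 1.97-fold (log2 fold change 0.98, SE 0.11, edgeR adjusted p 8.61e-06), and 3 of the 4 members were called where 41% of all genes were. This contrast shares no library with the one above. The change with Ctbp loss did not differ with Dux status past the threshold (interaction 0.28 on the log2 scale, 95% interval −0.01 to 0.57, edgeR adjusted p 0.201), in a test that called 19.5% of genes. Ctbp_DuxTKO and CtbpDKO overlapped in Dppa2, with a log2 difference of −0.09 (95% interval −0.29 to 0.11, edgeR adjusted p 0.66). That comparison called 0 members by edgeR against 8.15% of all genes. Of the members, Dppa3 alone had an unadjusted p under 0.05 there, and DESeq2 called 0.

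Dppa2 was lower without Dux in both tables that test it, and these tables share no library. In the genotype table DuxKO was below WT in both libraries, with a log2 fold change of −0.37 (SE 0.10, edgeR adjusted p 0.0261). There 3 of 4 members were called, against 17.5% of all genes. The call was lost when any 1 of the 4 libraries was left out, with values from −0.42 to −0.32. In the Pramel7 table Dppa2 was at 47.8 and 52.1 CPM in DuxKO-P and at 69.8, 77.5, 76.4 and 60.2 CPM in WT-P replicates 3 to 6. The groups did not overlap, and Dppa2 fell by 0.51 on the log2 scale (SE 0.14, edgeR adjusted p 0.022). Again 3 of 4 members were called, against 16.7% of all genes, and the call was lost without either DuxKO-P library or when only these groups were fitted.

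The Dppa2 rows of the libraries labelled as Dppa2 knockouts still held reads. Dppa2KO had 1208 and 1027 counts, or 33.3 and 29.1 CPM, which is 52.8% of the WT mean. DKO-Dppa2 had 426 and 464 counts, or 21.3 and 19.7 CPM, which is 21.4% of the CtbpDKO mean. The targeted part of the gene is not given in the labels, so these reads may lie outside it and the counts are no check of the knockout. The log2 fold changes were −0.92 (SE 0.11, edgeR adjusted p 0.000124) for Dppa2KO against WT and −2.22 (SE 0.11, edgeR adjusted p 1.31e-07) for DKO-Dppa2 against CtbpDKO. These comparisons called 16.4% and 15.4% of all genes. Dppa2 reads were thus lower in DKO-Dppa2 than in Dppa2KO (log2 fold change −0.61, SE 0.11, edgeR adjusted p 0.000923), the opposite direction to the rise seen with Ctbp loss where Dppa2 is intact. The interaction was −1.30 (SE 0.15, edgeR adjusted p 0.000352), in a test that called 8.23% of genes. Since the edited part of Dppa2 may differ between the 2 lines, that part in the interaction was not tested.

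**Figure D1:**
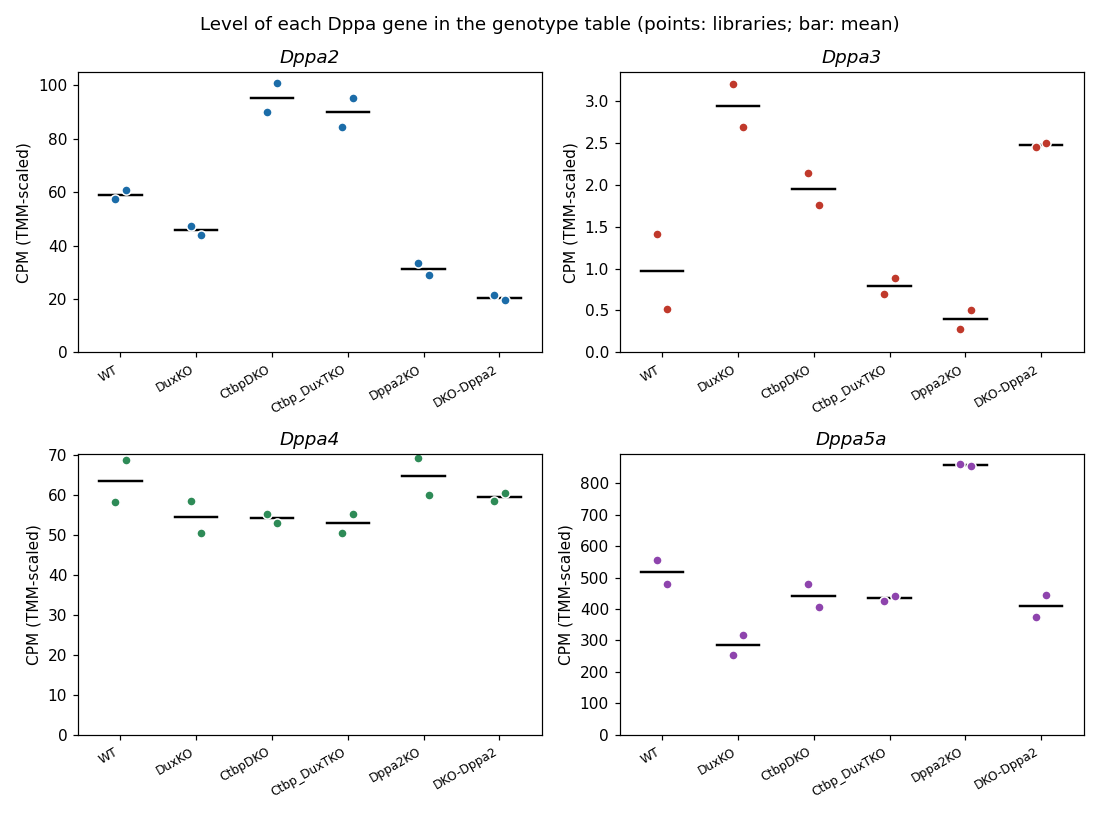
Level of the 4 members in the 12 libraries of the genotype table, in CPM on an axis that starts at 0 and differs in scale between the panels; points are libraries and bars are group means (n = 2). Dppa2 spans 19.7 to 101 CPM, lowest in DKO-Dppa2 and Dppa2KO where it is the edited gene, while Dppa4 stays between 50.6 and 69.3 CPM.

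Pramel7, which encodes a leucine-rich repeat protein of preimplantation embryos linked to loss of DNA methylation, went with higher Dppa2 when overexpressed. P7OE had 96.4 and 95.4 CPM of Dppa2, above each of the 4 WT-P libraries. The difference was 1.35-fold (log2 0.43, SE 0.13, edgeR adjusted p 0.0323), with 2 of 4 members called against 19.9% of all genes. It lost its call with WT-P replicate 3 or either P7OE library left out, and when only these groups were fitted (edgeR adjusted p 0.0766). In Dux-deficient cells the rise was from 47.8 and 52.1 CPM to 84.2 and 98.5 CPM in DuxKO_P7OE. This is 1.83-fold (log2 0.87, SE 0.15, edgeR adjusted p 0.00185), and 3 of 4 members were called against 21.4% of all genes. DuxKO_P7OE and P7OE overlapped in Dppa2 (log2 difference −0.07, 95% interval −0.37 to 0.23). None of the 4 members was called by edgeR between them, where 0.0298% of genes were called. Of the 4, 1 (Dppa4) had an unadjusted p under 0.05, and DESeq2 called 0. The effect of Pramel7 did not differ with Dux status past the threshold for Dppa2 (interaction 0.44, 95% interval 0.04 to 0.83, edgeR adjusted p 0.224), in a test that called 7.5% of genes. P7KO stood at 76.0 and 88.9 CPM and overlapped WT-P (log2 0.22, 95% interval −0.04 to 0.47, edgeR adjusted p 0.354); 1 member was called in that comparison, against 9.48% of genes.

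**Figure D2:**
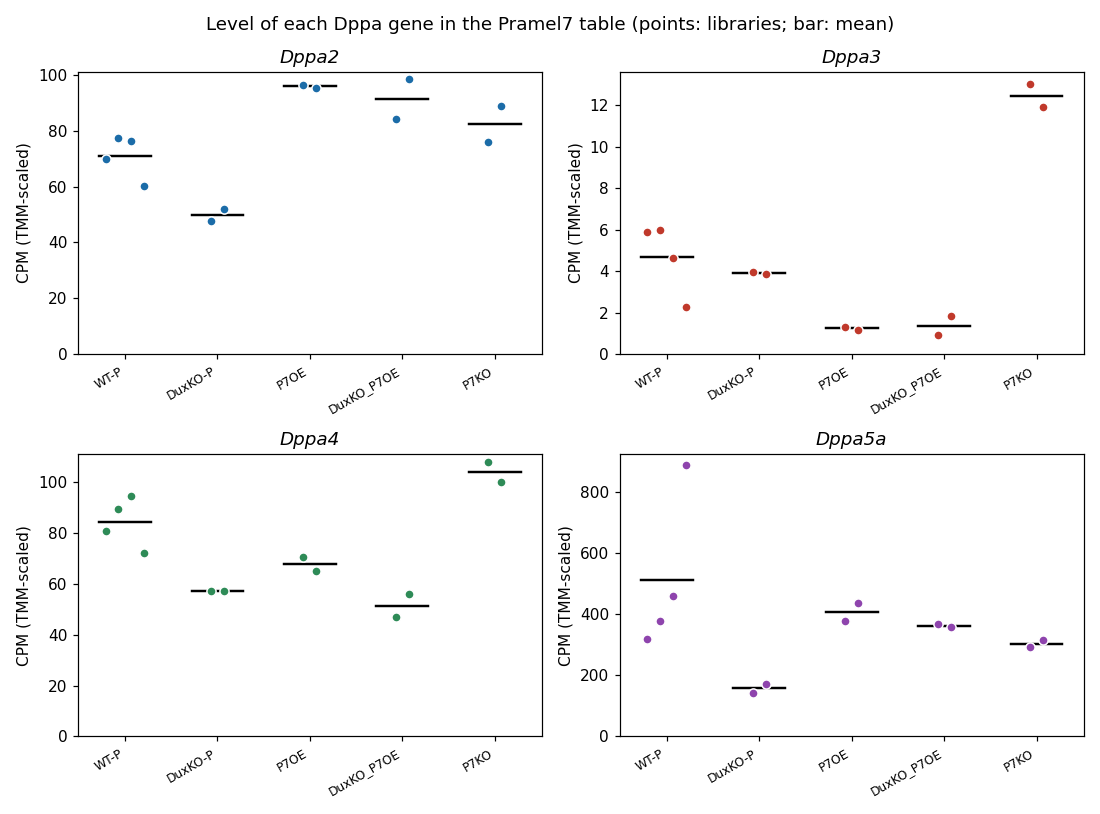
Level of the 4 members in the 12 libraries of the Pramel7 table, in CPM on axes that start at 0; points are libraries and bars are group means (n = 4 for WT-P, n = 2 for the rest). Dppa3 reaches 11.9 and 13.0 CPM in P7KO and 0.917 to 1.83 CPM in both groups with Pramel7 overexpression, and 1 WT-P library carries 886 CPM of Dppa5a.

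Over the 5 days Dppa2 was low on the days when Ctbp2 was high. Ctbp2 was at 58.9 and 59.3 CPM on day 0, at 544 and 573 CPM on day 3, at 310 and 296 CPM on day 9, and back at 49.4 and 44.7 CPM on day 12. Dppa2 was at 86.6 and 84.5 CPM on day 0 and at 58.6 and 58.0 CPM on day 3. It was then at 48.7 and 55.9 CPM on day 9, at 80.5 and 76.0 CPM on day 12, and at 90.8 and 91.2 CPM on day 18. Days 3 and 9 did not overlap the other days in either gene. Within the split the 2 genes did not mirror each other: Ctbp2 fell from day 3 to day 9 (log2 −0.88, edgeR adjusted p 0.00168), and Dppa2 was not higher on day 9. The fall from day 0 to day 3 was 0.55 on the log2 scale (SE 0.10, edgeR adjusted p 0.0056), with 2 of 4 members called against 4.99% of all genes. From day 0 to day 9 it fell by 0.71 (SE 0.10, edgeR adjusted p 0.000614), as the 1 member called, against 7.34% of genes. From day 9 to day 12 it rose by 0.58 (SE 0.10, edgeR adjusted p 0.0048), again as the 1 member called, against 3.84% of genes. The day 3 call was lost without either day 3 library, and the day 12 call without day 9 replicate 1 or either day 12 library, each at the same sign.

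The remaining steps of the time course called 0 of 4 members by edgeR and by DESeq2. Between days 3 and 9, where 1.12% of genes were called, Dppa2 differed by −0.16 (95% interval −0.35 to 0.04), and 1 member (Dppa3) had an unadjusted p under 0.05. Between days 12 and 18, where 0.82% were called, Dppa2 differed by 0.22 (95% interval 0.03 to 0.41), and 1 member (Dppa2 itself) had an unadjusted p under 0.05. Day 18 and day 0 differed by 0.09 in Dppa2 (95% interval −0.10 to 0.28), in a comparison that called 0.514% of genes, with 0 members at an unadjusted p under 0.05.

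**Figure D3:**
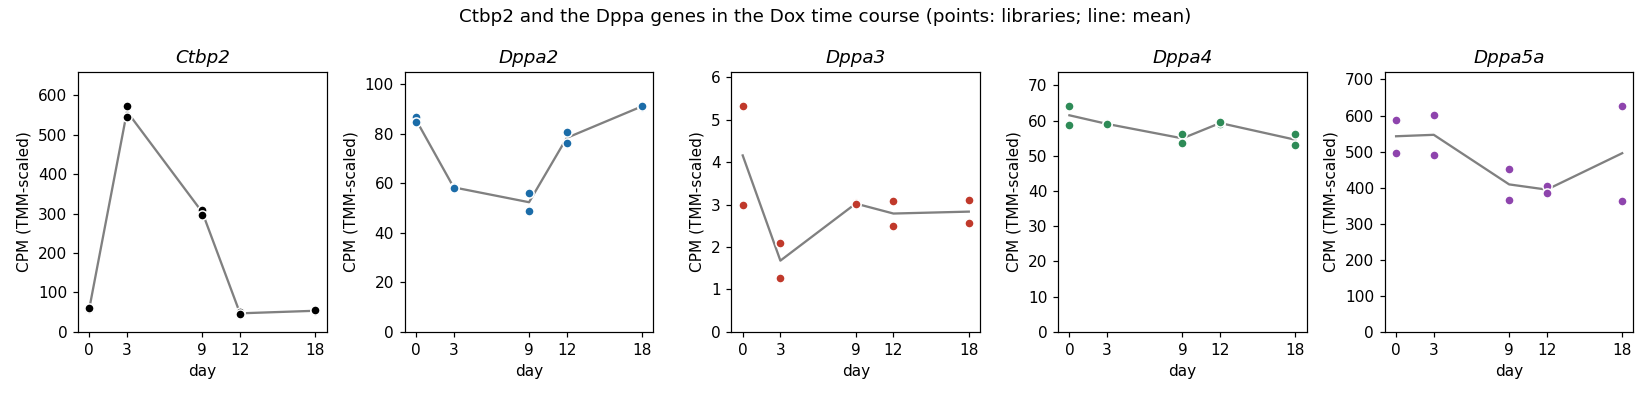
Ctbp2 and the 4 members over the 5 days of the time course, in CPM against day, on axes that start at 0; points are libraries and the line joins the daily means (n = 2). Dppa2 is lowest on days 3 and 9, when Ctbp2 is between 296 and 573 CPM, and Dppa4 stays between 53.0 and 64.2 CPM.

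Dppa4, the partner and genome neighbour of Dppa2, changed in 1 of 19 comparisons. Across the genotype table it ran from 50.6 to 69.3 CPM, a span of 1.37-fold, and every neighbouring pair of genotypes in the order of its means overlapped. WT had 58.2 and 68.7 CPM and CtbpDKO had 55.3 and 53.0 CPM, a log2 difference of −0.23 (95% interval −0.45 to −0.01, edgeR adjusted p 0.155). Between Ctbp_DuxTKO and DuxKO it differed by −0.04 (95% interval −0.26 to 0.18). In Dppa2KO, Dppa4 was at 69.3 and 60.1 CPM (log2 difference from WT 0.03, 95% interval −0.19 to 0.25, edgeR adjusted p 0.897). In the time course its values from day 0 to day 18 spanned 1.21-fold, and from day 0 to day 9 it differed by −0.16 (95% interval −0.35 to 0.03).

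The Pramel7 table gave Dppa4 its 1 call. WT-P had 80.7, 89.6, 94.6 and 72.2 CPM and DuxKO-P had 57.1 and 57.3 CPM, with no overlap. Dppa4 fell by 0.56 on the log2 scale (SE 0.13, edgeR adjusted p 0.0122), a call lost without either DuxKO-P library. In the genotype table the difference between DuxKO and WT was −0.22 (95% interval −0.43 to 0.00, edgeR adjusted p 0.206). P7KO held the highest Dppa4 level, at 108 and 100 CPM, and P7OE stood below WT-P at 70.4 and 65.1 CPM. Neither differed from WT-P past the threshold, at 0.31 (95% interval 0.06 to 0.56, edgeR adjusted p 0.161) and −0.32 (95% interval −0.57 to −0.06, edgeR adjusted p 0.112). With WT-P replicate 6 left out, or with WT-P replicates 3 and 4 alone, the P7OE difference was called, at −0.38 and −0.37.

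The ratio of Dppa2 to Dppa4 counts inside a library shows the unequal movement of the pair and needs no scaling between libraries. It was 0.984 and 0.887 in WT, 0.808 and 0.87 in DuxKO, 1.63 and 1.91 in CtbpDKO, and 1.67 and 1.73 in Ctbp_DuxTKO. In the Pramel7 table it lay between 0.703 and 0.908 in WT-P, DuxKO-P and P7KO. It was 1.37 and 1.47 in P7OE and 1.8 and 1.76 in DuxKO_P7OE. On days 0, 12 and 18 of the time course it was between 1.28 and 1.72, and on days 3 and 9 between 0.867 and 1.04. Every library with Ctbp loss and no Dppa2 edit, outside days 3 and 9, and every library with Pramel7 overexpression therefore had a ratio of 1.28 or more. Across the 12 genotype libraries the 2 genes' log2 CPM had a Pearson r of −0.44, and 0.15 and 0.17 over the 12 and 10 libraries of the other tables; groups share genotype and depth, so these are descriptions only. Medians of the genes on chromosomes 6, 9 and 16 whose log2 CPM averaged 2 or more stayed between −0.16 and 0.08 in all 22 contrasts.

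**Figure D4:**
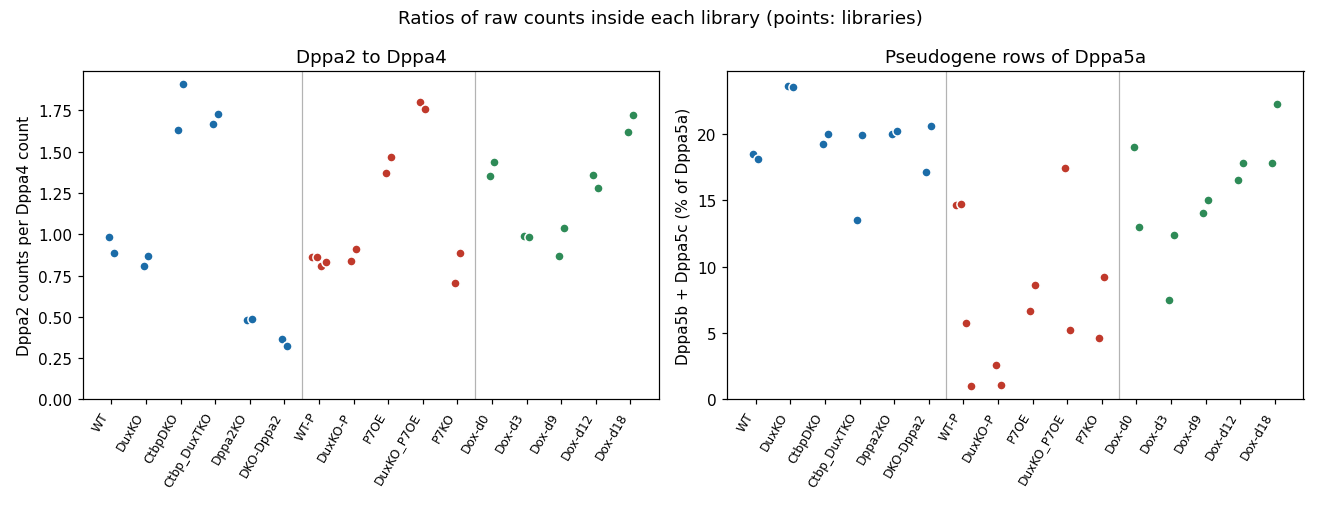
Left, Dppa2 counts per Dppa4 count; right, Dppa5b plus Dppa5c counts as a percentage of Dppa5a counts; each point is 1 library and vertical lines part the 3 tables. The left ratio is above 1.2 in CtbpDKO, Ctbp_DuxTKO, both groups with Pramel7 overexpression and days 0, 12 and 18, and the right one runs from 1.01% to 17.4% in the Pramel7 table.

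Each genotype library held only 10 to 94 counts of Dppa3, so counting error weighs on its values. WT had 42 and 16 counts, or 1.41 and 0.522 CPM, and DuxKO had 94 and 81 counts, or 3.20 and 2.69 CPM. Dppa3 rose in DuxKO (log2 fold change 1.61, SE 0.41, edgeR adjusted p 0.0156), a call lost without WT replicate 2 or DuxKO replicate 1. This did not recur in the Pramel7 table, where DuxKO-P, at 3.97 and 3.86 CPM, lay inside the WT-P range of 2.27 to 5.99 CPM (log2 −0.27, 95% interval −0.91 to 0.37, edgeR adjusted p 0.64). Whether the 2 Dux contrasts differ was not tested, since the tables were fitted apart. CtbpDKO had 2.14 and 1.76 CPM, and its difference from WT was not called (log2 1.01, 95% interval 0.20 to 1.82, edgeR adjusted p 0.0901). It was called without WT replicate 1 and with no filter on low counts.

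Ctbp loss went with less Dppa3 where Dux was missing, and Dppa3 was higher in DKO-Dppa2 than in Dppa2KO. Ctbp_DuxTKO had 0.694 and 0.883 CPM, below both DuxKO libraries (log2 −1.89, SE 0.42, edgeR adjusted p 0.00303). The interaction of Ctbp and Dux loss was −2.90 on the log2 scale (SE 0.59, edgeR adjusted p 0.00443). DKO-Dppa2 had 2.45 and 2.50 CPM, above Dppa2KO at 0.275 and 0.511 CPM (log2 2.65, SE 0.46, edgeR adjusted p 0.000666), with 3 of 4 members called against 30.4% of all genes. The interaction of Ctbp and Dppa2 loss was not called for Dppa3 (1.64, 95% interval 0.43 to 2.84, edgeR adjusted p 0.124). With no Dppa2 edit the change with Ctbp loss was also upward and not called (log2 1.01). DKO-Dppa2 was also above Ctbp_DuxTKO (log2 1.64, SE 0.43, edgeR adjusted p 0.0154), with 2 of 4 members called against 23%. That last call was lost without Ctbp_DuxTKO replicate 1 or DKO-Dppa2 replicate 2. The 10 and 18 counts of Dppa2KO make it the lowest group, but its difference from WT was not called (log2 −1.29, 95% interval −2.22 to −0.35, edgeR adjusted p 0.0837) except without WT replicate 2 or with no filter on low counts.

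Dppa3 moved in opposite directions with Pramel7 overexpression and in P7KO. Pramel7 had only 2 to 4 counts in WT-P and 0 and 3 in P7KO, so its RNA does not show a loss. Dppa3 had 156, 149, 120 and 50 counts in WT-P, or 5.91, 5.99, 4.62 and 2.27 CPM. P7OE had 41 and 19 counts, or 1.32 and 1.16 CPM, below every WT-P library. P7KO had 415 and 341 counts, or 13.0 and 11.9 CPM, above every other library of the table. Dppa3 fell 3.75-fold in P7OE (log2 −1.91, SE 0.38, edgeR adjusted p 0.00365) and rose 2.64-fold in P7KO (log2 1.40, SE 0.30, edgeR adjusted p 0.00984). These contrasts share the WT-P libraries, and the calls were lost without P7OE replicate 2 in the first and without either P7KO library in the second. In cells without Dux, Pramel7 overexpression took Dppa3 from 3.97 and 3.86 CPM to 0.917 and 1.83 CPM (log2 −1.51, SE 0.45, edgeR adjusted p 0.0318). The call was lost without either DuxKO-P library or DuxKO_P7OE replicate 1, and the interaction with Dux was 0.40 (95% interval −0.77 to 1.56, edgeR adjusted p 0.752).

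Across the days Dppa3 had 5.33 and 2.99 CPM on day 0 and 1.27 and 2.09 CPM on day 3. It fell by 1.30 on the log2 scale (SE 0.35, edgeR adjusted p 0.0475), a call near the threshold that was lost without day 0 replicate 1 or either day 3 library or when only these groups were fitted (edgeR adjusted p 0.101). Days 9, 12 and 18 ranged from 2.50 to 3.11 CPM, with 4 of those 6 libraries inside the day 0 range and 2 below it, and the 3 days overlapped each other.

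Dppa5a was lower without Dux in both tables that test it, and higher in Dppa2KO. WT had 557 and 480 CPM and DuxKO had 254 and 317 CPM, with no overlap (log2 fold change −0.86, SE 0.13, edgeR adjusted p 0.000443). Ctbp_DuxTKO was back at 426 and 443 CPM, above DuxKO (log2 0.61, SE 0.13, edgeR adjusted p 0.00179). With Dux present, CtbpDKO at 480 and 405 CPM differed from WT by −0.23 (95% interval −0.47 to 0.02, edgeR adjusted p 0.212). The interaction of Ctbp and Dux loss was 0.83 (SE 0.18, edgeR adjusted p 0.00572). Dppa2KO held the highest level, 863 and 857 CPM, which was 1.66-fold above WT (log2 0.73, SE 0.13, edgeR adjusted p 0.00188). In DKO-Dppa2 it was 375 and 444 CPM, below Dppa2KO (log2 −1.07, SE 0.13, edgeR adjusted p 3.29e-05) and overlapping CtbpDKO (log2 −0.11, 95% interval −0.36 to 0.13). The interaction of Ctbp and Dppa2 loss was −0.84 (SE 0.18, edgeR adjusted p 0.0121), a call lost without WT replicate 2 or CtbpDKO replicate 1.

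In the Pramel7 table Dppa5a varied more between WT-P libraries than any other member. It was at 319, 376, 460 and 886 CPM in replicates 3 to 6, and at 143 and 173 CPM in DuxKO-P. Every DuxKO-P library was below every WT-P library (log2 −1.69, SE 0.33, edgeR adjusted p 0.00409), but the call was lost without DuxKO-P replicate 3. Its size depends on the WT-P libraries used, at −1.177 with replicates 3 and 4 alone and −2.108 with replicates 5 and 6 alone, both called. DuxKO_P7OE was higher than DuxKO-P, at 367 and 357 CPM (log2 1.19, SE 0.36, edgeR adjusted p 0.0319), but this call was lost when any 1 of the 4 libraries was left out. P7OE, at 377 and 437 CPM, lay inside the WT-P range (log2 −0.33, 95% interval −0.93 to 0.28, edgeR adjusted p 0.504). The sign of that difference depends on the WT-P libraries, at 0.189 with replicates 3 and 4 alone and −0.745 with replicates 5 and 6 alone (edgeR adjusted p 0.0344). P7KO was at 291 and 315 CPM, below WT-P but not called (log2 −0.75, 95% interval −1.37 to −0.13, edgeR adjusted p 0.163). It was called with WT-P replicates 5 and 6 alone, at −1.16. The interaction of Pramel7 and Dux for Dppa5a was 1.52 (95% interval 0.59 to 2.45), not called by edgeR (adjusted p 0.0721) and called by DESeq2 (adjusted p 0.0122), and by edgeR without WT-P replicate 3 or 6.

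WT-P replicate 6 had the highest Dppa5a level of its group and the lowest Dppa2, Dppa3 and Dppa4 levels. It also had few reads on the Dppa5a pseudogene rows. Dppa5b and Dppa5c together amounted to 1.01% of the Dppa5a counts there, with 51 and 146 counts against 19473. They amounted to 14.6% and 14.7% in WT-P replicates 3 and 4, 5.76% in replicate 5, and 2.58% and 1.05% in DuxKO-P. In the genotype table the share was 13.5% to 23.6%, and in the time course 7.47% to 22.2%. The sum of the 3 rows gave the same calls for Dppa5a in every comparison except the interaction of Pramel7 and Dux, which was then called (1.64, adjusted p 0.0359). Why the share differs between libraries was not tested.

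In the time course Dppa5a was called in none of the 6 comparisons by edgeR, with 0 at an unadjusted p under 0.05, and DESeq2 called 0. It was at 497 and 588 CPM on day 0, 602 and 491 on day 3, 366 and 452 on day 9, 405 and 384 on day 12, and 627 and 364 on day 18. The day 18 pair held the highest and the lowest value of the time course, and so spanned its whole range. The differences of day 9 from days 3 and 0 were −0.42 (95% interval −0.81 to −0.02) and −0.41 (95% interval −0.80 to −0.01), and both were called with no filter on low counts.

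**Figure D5:**
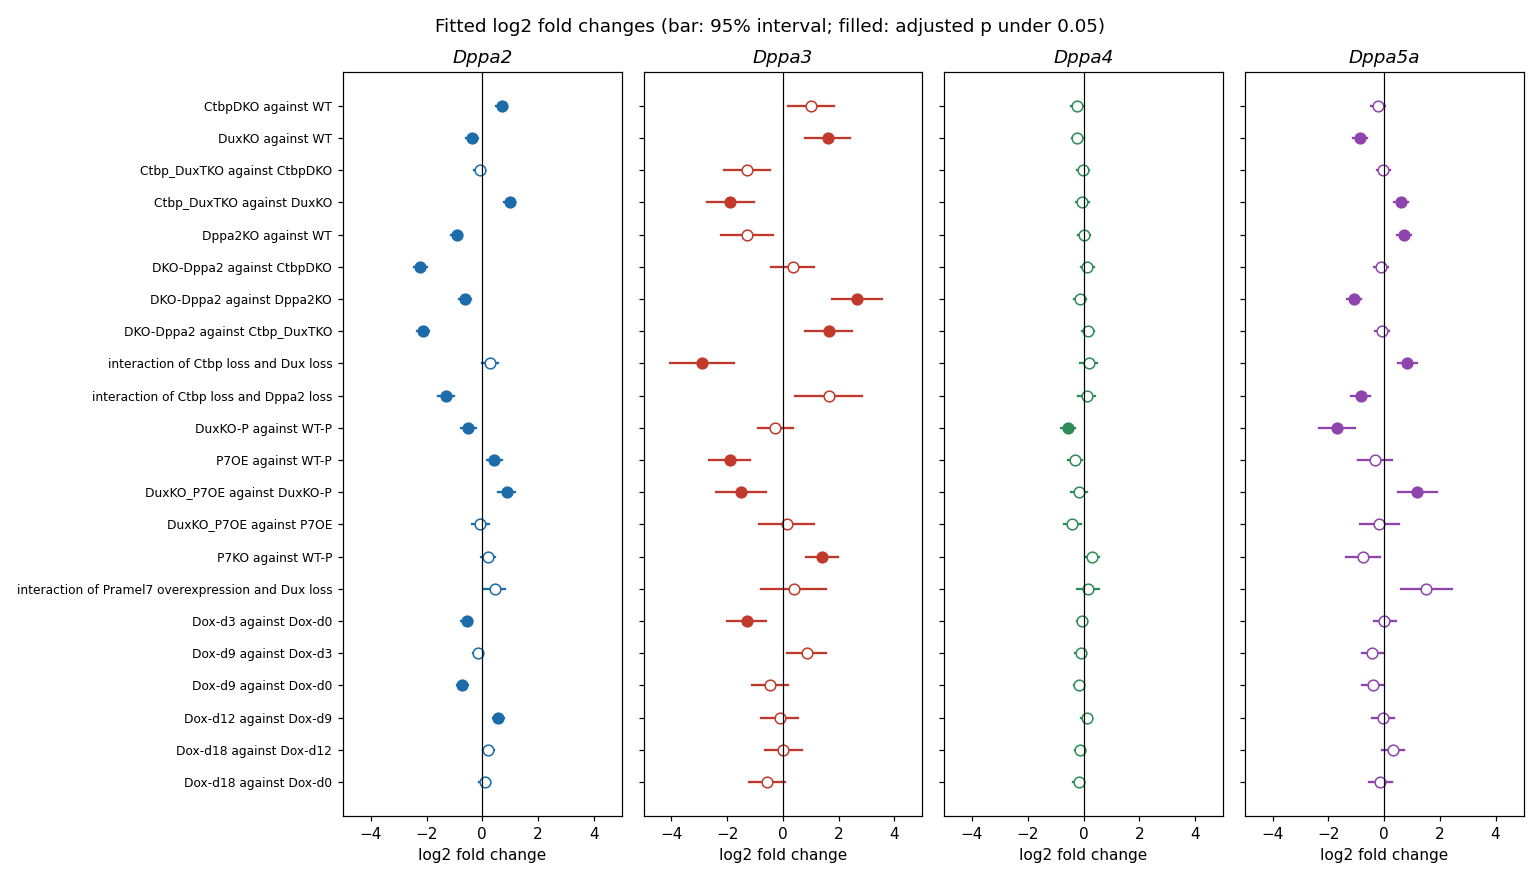
Fitted log2 fold changes of the 4 members in 19 comparisons and 3 interactions; points are estimates, bars are 95% intervals, and filled points have an adjusted p under 0.05. Dppa2 has 14 filled points, Dppa3 9, Dppa5a 8 and Dppa4 1. Those of Dppa2 include every contrast with Dppa2KO or DKO-Dppa2, where it is the edited gene.

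Of 14 genes reported to depend on Dppa2 or Dppa4, 13 were tested in the genotype table. In Dppa2KO against WT 7 of the 13 fell, 0 rose and 6 were not called by edgeR, and 6 fell by DESeq2. That comparison called 16.4% of all genes by edgeR. Syce1, a synaptonemal complex gene, had 113 to 128 counts in WT and 0 in both Dppa2KO libraries. Ddx4, a germ cell RNA helicase gene, had 131 to 146 counts in WT and likewise 0. In DKO-Dppa2, also labelled as a Dppa2 knockout, Syce1 had 8 to 15 counts and Ddx4 had 6 in each library. Both were higher there than in Dppa2KO (edgeR adjusted p 4.67e-05 for Syce1 and 0.000538 for Ddx4). Against CtbpDKO, 11 of 13 fell and 0 rose in DKO-Dppa2 by edgeR, where 15.4% of all genes were called, and 10 fell by DESeq2. The 11 include Duxf3 itself, and DKO-Dppa2 may also lack Dux. Zscan4c had 323 to 476 counts in CtbpDKO and 0 in DKO-Dppa2.

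In CtbpDKO, where Dppa2 rose, 11 of 13 rose and 0 fell by edgeR, against 26.1% of all genes called, and 7 rose by DESeq2. Zscan4c, a 2-cell embryo gene, went from 0.0978 to 0.403 CPM in WT to 9.85 to 13.3 CPM. Tcstv3 and Tcstv1, also 2-cell genes, had 0 counts in WT and 23 to 45 and 12 to 14 in CtbpDKO. Zscan4d was at 2.68 to 2.91 CPM in CtbpDKO against at most 0.0652 CPM in WT. The Zscan4 and Tcstv rows belong to families of near-identical copies, so reads may be split between them. In Ctbp_DuxTKO, whose Dppa2 did not differ from CtbpDKO past the threshold, 5 of 13 fell and 0 rose by edgeR, and 2 fell by DESeq2. The 5 include Duxf3, the gene edited in Ctbp_DuxTKO, so that fall follows from the edit. Zscan4d fell to 0 counts and Zscan4c to at most 3. That comparison called 8.15% of all genes. In Ctbp_DuxTKO against DuxKO, where Dppa2 rose, 5 of 13 rose and 1 fell by edgeR, and 5 rose and 0 fell by DESeq2. Of all genes, edgeR called 41% in that comparison. Syce1 had 240 to 309 counts in Ctbp_DuxTKO and was called higher than in DuxKO.

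Over the days few of all genes were called in the steps in which Dppa2 changed. From day 0 to day 3, when Dppa2 fell, 1 of 14 tested genes rose (Ddx4, log2 0.77) and 1 fell (Tcstv3, log2 −1.6). That step called 4.99% of all genes. By day 9, 4 of 14 had fallen from day 0 and 0 had risen, against 7.34% of all genes called. From day 9 to day 12, when Dppa2 rose, edgeR called 0 of 14, with 1 at an unadjusted p under 0.05, and DESeq2 called 0. That step called 3.84% of all genes. With Pramel7 overexpression 4 of 10 tested genes rose and 0 fell, where 19.9% of all genes were called. Among them were Zscan4f, at 3.59 to 5.71 CPM against 0.0402 to 0.341 CPM in WT-P, and Syce1 (log2 0.89). In DuxKO_P7OE against DuxKO-P, 3 of 10 rose and 0 fell, where 21.4% of all genes were called. The 3 were Mael (log2 2.72), Dazl (log2 2.69) and Syce1 (log2 1.7), 3 germline genes. All Zscan4c, Zscan4d and Zscan4f counts were 0 in DuxKO_P7OE.

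Genes reported to regulate Dppa2 or Dux in stem cells form a list of 16, mostly chromatin and SUMO pathway genes. In CtbpDKO against WT 3 rose and 1 fell, 4 of 16, a share near the 26.1% called among all genes, with Setdb1, a histone methyltransferase gene, at 0.48, Smchd1 at −0.40, Ncl at 0.39 and Trim28 at 0.26 on the log2 scale. The list median was 0.04, beside 0.007 over all genes. In Ctbp_DuxTKO against DuxKO 6 rose and 4 fell, where 41% of all genes were called. In the time course edgeR called 0 of 16 in each of the 6 comparisons, which called 0.514% to 7.34% of all genes. In each, 1 to 3 genes had an unadjusted p under 0.05, and DESeq2 called 1 in day 9 against day 0 and 0 elsewhere. In P7OE against WT-P 6 of 16 fell and 0 rose, where 19.9% of all genes were called. They were led by Lin28a (log2 −0.81), Pcgf6 (log2 −0.79), E2f6 (log2 −0.69) and Sumo2 (log2 −0.67). Pcgf6 and E2f6 encode parts of a noncanonical Polycomb complex that represses germline genes. Lin28a, an RNA-binding protein gene, was also lower in P7KO (log2 −0.83) and in DuxKO-P (log2 −1.01).

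Of the 10 genes of the DNA methylation machinery linked to Dppa3, 5 were called in P7KO against WT-P and 5 in P7OE against WT-P, contrasts that share the WT-P libraries. Among all genes 9.48% and 19.9% were called in these contrasts. In P7KO, with the highest Dppa3, Dnmt3b (log2 −2.05), Dnmt3a (log2 −1.73) and Dnmt3l (log2 −1.27) fell and Dnmt1 (log2 0.63) and Uhrf1 (log2 0.40) rose. Dnmt3a, Dnmt3b and Dnmt3l encode the de novo methyltransferases and their cofactor, and Uhrf1 the factor that DPPA3 binds. In P7OE, with low Dppa3, Dnmt3a (log2 1.17), Tet3 (log2 0.98) and Tet2 (log2 0.96) rose, and Dnmt3b (log2 −1.35) and Hells (log2 −0.65) fell. Comparisons in which Dppa3 was not called also held such calls, with 4 lower and 1 higher in DuxKO-P against WT-P and 8 lower and 1 higher in DKO-Dppa2 against CtbpDKO. Those 2 comparisons called 16.7% and 15.4% of all genes. In DuxKO against WT, where Dppa3 rose, Dnmt3l (log2 −1.55), Tet1 (log2 −1.01), Dnmt3b (log2 −0.69) and Tet2 (log2 −0.51) fell and 0 rose. Among all genes 17.5% were called there. Dnmt3l and Dnmt3b rose together in CtbpDKO (log2 1.6 and 1.67), where the change in Dppa3 was not called. Median log2 fold changes of the list were 0.07 in P7KO and 0.18 in P7OE, beside 0.012 and −0.013 over all genes.

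Among neighbours in the genome, Morc1, beyond Dppa2, was lower without Dux where Ctbp was present, and higher with Pramel7 overexpression. It was at 17.7 to 19.8 CPM in WT and 5.05 to 5.51 CPM in DuxKO (log2 −1.82, edgeR adjusted p 2.08e-06), whereas without Ctbp it was higher without Dux, at 45.0 to 46.3 CPM in Ctbp_DuxTKO against 21.0 to 26.6 CPM in CtbpDKO (log2 0.94, edgeR adjusted p 0.000544). In P7OE it rose by 1.45 on the log2 scale and in DuxKO_P7OE against DuxKO-P by 3.73. In the time course it fell by 0.89 from day 0 to day 3 and rose by 0.86 from day 9 to day 12, the same directions as Dppa2. In CtbpDKO against WT, where Dppa2 rose, Morc1 was not called (log2 0.35, edgeR adjusted p 0.0551). Dppa4, which lies on the other side of Dppa2, was called in none of these comparisons.

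Ooep, the neighbour of Dppa5a, was called with it in DuxKO (log2 −0.80), Dppa2KO (log2 0.59), DKO-Dppa2 against Dppa2KO (log2 −0.95), DuxKO-P (log2 −0.66) and Ctbp_DuxTKO against DuxKO (log2 0.39), each in the direction of Dppa5a. It also fell from day 0 to day 3 (log2 −0.92) and in CtbpDKO against WT (log2 −0.68), where Dppa5a was not called. Gdf3, a TGF-beta family gene next to Dppa3, fell in CtbpDKO (log2 −0.94) and in DuxKO (log2 −0.38), the latter a comparison in which Dppa3 rose. Nanog, further along, was not called in P7OE (log2 −0.28) or P7KO (log2 0.28), both comparisons with a call for Dppa3. Of the 12 pluripotency genes, 2 rose and 7 fell in CtbpDKO, where 26.1% of all genes were called. In DuxKO 1 rose and 5 fell (17.5% of all genes called), and in DuxKO-P 4 rose and 1 fell (16.7%). In Dppa2KO (16.4%), P7OE (19.9%) and P7KO (9.48%), 5 rose and 0 fell each.

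Markers of other lineages differed between the same groups. Primitive endoderm markers (6 genes) summed to 74.8 to 78.0 CPM in P7OE and 68.3 to 73.3 CPM in DuxKO_P7OE against 6.31 to 8.80 CPM in WT-P, and to 131 to 134 CPM in Ctbp_DuxTKO against 27.3 to 31.9 CPM in WT. Trophoblast markers (6 genes) summed to 152 to 163 CPM in CtbpDKO against 28.6 to 32.2 CPM in WT, and ranged from 87.5 to 202 CPM among the WT-P libraries. Formative epiblast markers (4 genes, Dnmt3b among them) summed to 353 to 502 CPM in WT-P and 72.2 to 83.8 CPM in DuxKO-P. They summed to 286 to 291 CPM in CtbpDKO against 104 to 112 CPM in WT. In that contrast the genes went different ways. By edgeR 1 of the 4 rose, Dnmt3b, and 3 fell, with a median log2 fold change of −0.52. DESeq2 called 1 higher and 2 lower. Of all genes, edgeR called 26.1% there. None of the primitive endoderm or formative markers was at 0 in a whole group, and at most 1 trophoblast marker was. In the time course trophoblast markers summed to 144 to 156 CPM on day 0, 67.3 to 71.8 on day 3, 114 to 119 on day 9, 169 to 182 on day 12 and 199 to 205 on day 18, and formative markers to 217 to 247, 170 to 182, 121 to 124, 199 to 209 and 210 to 241 CPM. Both sums were therefore lower on days 3 and 9, the days of low Dppa2, than on days 0, 12 and 18. The formative genes did not fall together, however. From day 0 to day 3 edgeR called 1 of the 4 higher and 1 lower, where 4.99% of all genes were called. From day 0 to day 9 it called 2 higher and 1 lower, where 7.34% were called. Of 5 tested trophoblast markers, 0 rose and 3 fell to day 3, and 0 rose and 2 fell to day 9. Primitive endoderm markers summed to 14.9 to 30.5 CPM up to day 12 and to 62.5 to 70.0 CPM on day 18. Mesoderm markers (3 genes) summed to 11.1 to 19.9 CPM in WT-P and to at most 3.45 CPM in every other group. Feeder fibroblast markers (5 genes) summed to between 0.624 and 20.5 CPM over all groups, with up to 3 of them at 0. The part of these differences in the Dppa values was not tested.

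Over the 12 genotype libraries, and among 9724 named genes whose log2 CPM averaged 2 or more, the genes most like each member in log2 CPM were as follows. For Dppa2 they were Map1b (Pearson r 0.96), Gpr161 (r 0.941) and Shank3 (r 0.937), with Iffo1 lowest (r −0.953). For Dppa3 they were Tmem185a (r 0.959), Smim7 (r 0.939) and Enkd1 (r 0.932), with Notumos lowest (r −0.932). For Dppa4 they were Alkbh3 (r 0.893), Osbpl2 (r 0.89) and Tcf7 (r 0.89), with Ankrd28 lowest (r −0.861). For Dppa5a they were Myo1f (r 0.941), Fbln1 (r 0.94) and Dalrd3 (r 0.939), with Rhou lowest (r −0.954). Most of these did not keep their likeness elsewhere: Gpr161 had r −0.54 and 0.14 with Dppa2 in the Pramel7 table and the time course, and Tcf7 had −0.51 and −0.63 with Dppa4. Iffo1 kept a negative r with Dppa2, at −0.49 and −0.98. Among the members themselves, Dppa3 and Dppa5a had r −0.79 in the genotype table and −0.29 and −0.17 in the others, and Dppa3 and Dppa4 had 0.79 in the Pramel7 table and −0.51 and 0.23 in the others.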

How the data were processed

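Each deposited table holds unnormalised read counts by gene symbol, for 34 RNA libraries in all. Per the submitters' processing notes, Trim Galore, HISAT2, featureCounts and Bismark were used with build mm10; which tool made which file, the versions and the strand setting are not given in the sources used here. Libraries were stranded, per the labels' protocols. A further table of 8 libraries equalled the genotype table in 442208 of 442208 values. The 6 bisulfite samples were not analysed here.

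Counts were tested with edgeR 4.0.16 (R 4.3.3): filterByExpr (21193, 20161 and 20612 genes kept), TMM factors, the quasi-likelihood test, 1 fit per table with group as its term, and Benjamini-Hochberg adjustment over all tested genes, called under 0.05. Intervals are normal 95% intervals from the SE. The code was tested on simulated data. DESeq2 1.42.0 was an alternative. Replicate pairs differed by 14.3 to 166 in chi-square per gene, so none was a copy. WT-P replicates 3 and 4 gave 34.4, the other WT-P pairs 81 to 166, and pairs of all other groups 14.3 to 49.3. Structural RNA genes and rows sharing their reads took 11.4% to 29.7% of counts. Log2 CPM used a prior count of 2. Positions come from RefSeq's gene table by symbol. Genes named were the members, targeted genes, Dppa rows, the most similar genes, and called genes of each list. The members and lists were chosen with earlier results of these data known.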

Additional observations from a re-analysis of the deposited data

Results flagged for a closer look

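The effect of Ctbp loss on a member differed by a test of the difference itself in 4 cases. The interaction with Dux loss called 2 of 4 members, against 19.5% of all genes. The interaction with Dppa2 loss also called 2 of 4, against 8.23% of all genes. For Dppa3, Ctbp loss went with a log2 change of 1.01 where Dux was present, not called, and −1.89 where it was absent, an interaction of −2.90 (edgeR adjusted p 0.00443); the rows held 16 to 94 counts. For Dppa5a the same interaction was 0.83 (edgeR adjusted p 0.00572), from −0.23 with Dux, not called, to 0.61 without it. With and without a Dppa2 edit, the change of Dppa2 was −0.61 and 0.69, an interaction of −1.30 (edgeR adjusted p 0.000352), in which the Dppa2 row itself is the edited gene and DKO-Dppa2 may also lack Dux. For Dppa5a it was −1.07 and −0.23, an interaction of −0.84 (edgeR adjusted p 0.0121). No member had a library standing apart by Dixon's test in WT-P, the 1 group of 4; Dppa5a came nearest, with a gap of 0.751 of its range.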

How the results depend on the processing

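Of 990 values of the members under alternatives, 899 kept direction and side of the threshold, 41 lost a call, 18 gained one, 0 called values turned direction and 32 uncalled ones changed sign. Among those that kept their side throughout were Dppa2 in CtbpDKO, Dppa2KO and DuxKO_P7OE against their controls and Dppa5a in DuxKO against WT. Same-numbered libraries were not paired by any label, and their deviations correlated at −0.413 to 0.181.

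With no filter on low counts, calls were gained by Dppa3 in CtbpDKO (1.01) and Dppa2KO (−1.28) against WT and in Ctbp_DuxTKO against CtbpDKO (−1.30), and by Dppa5a in P7KO (−0.774), the Pramel7 and Dux interaction (1.51), and day 9 against days 3 (−0.412) and 0 (−0.396), and Dppa2 in P7OE lost its call (0.427). That interaction was also called by DESeq2 (1.55) and with the pseudogene rows added (1.64), an alternative chosen after seeing the data. Fitting only the groups compared lost Dppa2 in DuxKO-P (−0.531) and P7OE (0.437) and Dppa3 on day 3 (−1.31), which was also lost with a replicate block (−1.27). WT-P replicates 3 and 4 alone gave a call for Dppa4 in P7OE (−0.37), and replicates 5 and 6 alone gave calls for Dppa5a in P7OE (−0.745) and P7KO (−1.16).

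Counts of called genes moved by over 1.5 times in these cases. DuxKO_P7OE against P7OE went from 6 to 153 (DESeq2), 350 (no filter), 63 (only these groups) and 333 (replicate block). DuxKO-P went from 3361 to 2104 and P7KO from 1911 to 1073 with only these groups; with WT-P replicates 3 and 4 alone P7KO gave 4693 and P7OE 6124 (from 4003). Day 9 against 3 went from 230 to 436 (DESeq2) and 789 (no filter), day 18 against 12 from 169 to 319, 652, 60 (only these groups) and 112 (replicate block), and day 18 against 0 from 106 to 268, 566 and 40. No filter gave 1634 for day 3 against 0 and 1361 for day 12 against 9. A replicate block could be fitted in the Pramel7 table for DuxKO-P against WT-P and DuxKO_P7OE against P7OE.

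Leaving out 1 library, which assumes that a lone library varies like the other groups, gave these ranges of called genes: CtbpDKO 3543 to 4048, DuxKO 1825 to 2046, Dppa2KO 1616 to 2379, Ctbp_DuxTKO against CtbpDKO 558 to 1250, DKO-Dppa2 against CtbpDKO 1272 to 2058 and against Ctbp_DuxTKO 2352 to 3744, the Ctbp interactions with Dux 2638 to 3710 and with Dppa2 773 to 1310, DuxKO-P 1208 to 3533, P7OE 1477 to 4818, P7KO 518 to 2426, DuxKO_P7OE against DuxKO-P 1925 to 2675 and against P7OE 2 to 11, the Pramel7 interaction 651 to 1939, day 3 against 0 340 to 607, day 9 against 3 51 to 101 and against 0 652 to 969, day 12 against 9 210 to 303, and day 18 against 12 38 to 213 and against 0 27 to 233.

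For members whose call changed, the ranges were, for Dppa2, DuxKO −0.422 to −0.317, DuxKO-P −0.592 to −0.457, P7OE 0.37 to 0.494, day 3 −0.571 to −0.537 and day 12 0.482 to 0.681. For Dppa3 they were CtbpDKO 0.447 to 1.892, DuxKO 1.069 to 2.491, Dppa2KO −1.837 to −0.406, DKO-Dppa2 against Ctbp_DuxTKO 1.485 to 1.838, the Ctbp and Dppa2 interaction 0.754 to 2.19 (called without WT replicate 2), P7OE −2.123 to −1.759, P7KO 1.145 to 1.517, DuxKO_P7OE against DuxKO-P −2.096 to −1.087 and day 3 −1.701 to −0.835. For Dppa4 they were DuxKO-P −0.64 to −0.532 and P7OE −0.378 to −0.245. For Dppa5a they were DuxKO-P −1.881 to −1.295, DuxKO_P7OE against DuxKO-P 1.066 to 1.332, the Ctbp and Dppa2 interaction −0.973 to −0.701 and the Pramel7 and Dux interaction 1.119 to 1.734. The cause of these changes was not tested, beyond the fewer libraries or genes that each fit used.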
